A study of Rattus norvegicus with 8 samples.

Results

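The Hox genes encode homeodomain transcription factors that record position along the body axis. The members described here are the 39 rows of the deposited count table whose symbol is Hox, a cluster letter from a to d and a paralog number, out of 29884 gene symbols. 11 lie in the Hoxa cluster, 10 in Hoxb, 9 in Hoxc and 9 in Hoxd. The samples are whole cervix of wild-type pregnant Sprague-Dawley rats that were injected intraperitoneally on gestational day 17 with lipopolysaccharide (LPS, 100 µg/kg, 4 libraries) or the same volume of phosphate-buffered saline (PBS, 4 libraries) and sampled 12 hours later. LPS is a glycolipid of the Gram-negative outer membrane, and the study uses it as a model of preterm birth. The labels give no age of the dams. Total counts were 33191039 to 40634384 per library. Levels are CPM, read counts relative to a library size that was corrected by the TMM method, which removes differences in composition between libraries.

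Within each Hox cluster, genes are numbered from the 3′ to the 5′ end, and low numbers are used in the head and trunk and high numbers towards the tail. Genes of one number in different clusters are paralogs and often act together. In the female tract of mice and humans the 5′ genes of Hoxa are laid out along the Müllerian duct, with Hoxa9 in the oviduct, Hoxa10 in the uterus, Hoxa11 in the uterus and cervix and Hoxa13 in the upper vagina, and adult tissue keeps this pattern. Hox proteins bind DNA with the cofactors Pbx and Meis, and Trithorax and Polycomb proteins hold each cluster on or off.

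A value given for a gene without a unit is its log2 fold change, LPS minus PBS, and called means an adjusted p under 0.05. In PBS, 11 of the 13 paralog groups had at least 1 member with a mean of 1 CPM or more, and 23 of the 39 genes reached that level. Group 12 was without one. 5 genes, Hoxb1, Hoxb13, Hoxc12, Hoxc13 and Hoxd1, had 0 counts in all 8 libraries, which allows up to 3 counts per library, or 0.0734 to 0.0899 CPM. Of the 30 Hox genes that passed the filter on low counts, Hoxa13 rose with LPS, Hoxb2 and Hoxb7 fell and 27 did not pass the test. The 3 called genes are 10% of those tested, against 16.9% of all 16117 genes tested, and the largest of the 3 changes was 1.47-fold. At an unadjusted p under 0.05 there were 7 of 30, against 32.6% of all genes. DESeq2 called 5 of 30, against 26% of all genes, and limma-voom the same 3 genes as edgeR, against 16.2%. Of the 30 log2 fold changes 8 were above 0 and 22 below, with a median of -0.42 against 0.010 over all genes tested, and a median of -0.14 without PBS replicate 1.

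The start of Hoxa13 is shown because that gene was the only member called higher, and those of Hoxa3, Hoxd13 and Hoxd12 because these genes return below as its contrasts: Hoxa3, in the same cluster, had a fold change of the other sign, and Hoxd12 was close to 0 counts beside Hoxd13. The sequences are RefSeq windows on the GRCr8 rat assembly, from 250 bases before to 50 bases after the annotated start, written 5′ to 3′ on the gene's strand, with CpG dinucleotides in capitals. GRCr8 is not mRatBN7.2, the build named for the count data, and the windows were matched by symbol. The annotated span of Hoxa3 runs over Hoxa4, Hoxa5 and Hoxa6, so its window lies 5′ of those of Hoxa4 and Hoxa6.
Hoxa13, chr4:82691652-82691951, minus strand: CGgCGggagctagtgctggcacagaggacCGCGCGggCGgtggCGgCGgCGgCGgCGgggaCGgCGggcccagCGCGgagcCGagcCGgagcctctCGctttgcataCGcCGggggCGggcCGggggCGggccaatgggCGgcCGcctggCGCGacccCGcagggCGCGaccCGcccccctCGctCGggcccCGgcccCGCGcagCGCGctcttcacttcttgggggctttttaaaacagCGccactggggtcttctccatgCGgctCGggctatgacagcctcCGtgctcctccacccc
Hoxa3, chr4:82643782-82644081, minus strand: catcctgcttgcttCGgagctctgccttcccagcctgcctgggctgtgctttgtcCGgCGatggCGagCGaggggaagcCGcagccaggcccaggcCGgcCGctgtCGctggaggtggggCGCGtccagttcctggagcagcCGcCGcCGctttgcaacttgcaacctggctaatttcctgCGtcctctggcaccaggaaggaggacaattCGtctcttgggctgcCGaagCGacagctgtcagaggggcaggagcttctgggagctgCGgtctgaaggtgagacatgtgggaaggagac
Hoxd13, chr3:79977827-79978126, plus strand: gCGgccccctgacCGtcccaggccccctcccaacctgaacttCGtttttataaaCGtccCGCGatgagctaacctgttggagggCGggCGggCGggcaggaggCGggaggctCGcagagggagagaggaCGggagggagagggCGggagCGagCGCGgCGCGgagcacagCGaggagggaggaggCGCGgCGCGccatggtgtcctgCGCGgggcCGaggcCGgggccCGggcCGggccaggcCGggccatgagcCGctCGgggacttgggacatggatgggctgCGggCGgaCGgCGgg
Hoxd12, chr3:79984856-79985155, plus strand: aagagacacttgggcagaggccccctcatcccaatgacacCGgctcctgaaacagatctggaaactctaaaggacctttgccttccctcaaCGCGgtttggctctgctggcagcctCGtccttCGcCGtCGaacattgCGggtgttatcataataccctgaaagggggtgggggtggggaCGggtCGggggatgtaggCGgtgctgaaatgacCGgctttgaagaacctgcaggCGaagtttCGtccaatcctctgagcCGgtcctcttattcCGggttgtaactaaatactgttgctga

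The Hoxa13 window held 42 CpG dinucleotides, that of Hoxd13 36, that of Hoxa3 19 and that of Hoxd12 16. Over all 33469 windows of the RefSeq table the median was 7 and the 90th percentile 30. A window was given for 20 of the 39 Hox genes, with a pair of windows for Hoxa10. In these 21 windows the CpG count ran from 6 to 49 with a median of 22, and in the 3 windows of genes at 0 or below the filter, Hoxb1, Hoxd1 and Hoxd12, from 9 to 30. TATAAA, the TATA box, was searched on both strands with overlapping matches counted, and was found in 4 of the 21, including Hoxd13, against 14.2% of all windows, and TGATTNAT, a motif of Hox-Pbx pairs, in 2 of the 21 against 3.18%. These matches describe the letters of the windows only.

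The plot of Hox levels shows that in PBS the Hoxa and Hoxb clusters held most Hox reads. Hoxb took 55.2 ± 9.62% of them (mean ± SD, n = 4), Hoxa 34.0 ± 6.01%, Hoxd 9.56 ± 4.02% and Hoxc 1.28 ± 0.449%. All Hox genes together came to 340.4 ± 30.0 CPM in PBS and 319 ± 27.6 CPM in LPS. CPM is not divided by transcript length, since no transcript lengths were at hand, so these are shares of reads and the levels of different genes are not ranked. In LPS the shares were 47.5 ± 4.77% for Hoxb, 43.4 ± 5.16% for Hoxa, 8.42 ± 1.63% for Hoxd and 0.748 ± 0.191% for Hoxc (n = 4). The groups overlapped for Hoxb, Hoxa and Hoxd. They did not for Hoxc, the smallest share, at 0.973 to 1.93% in PBS and 0.467 to 0.877% in LPS.

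**Figure D1:**
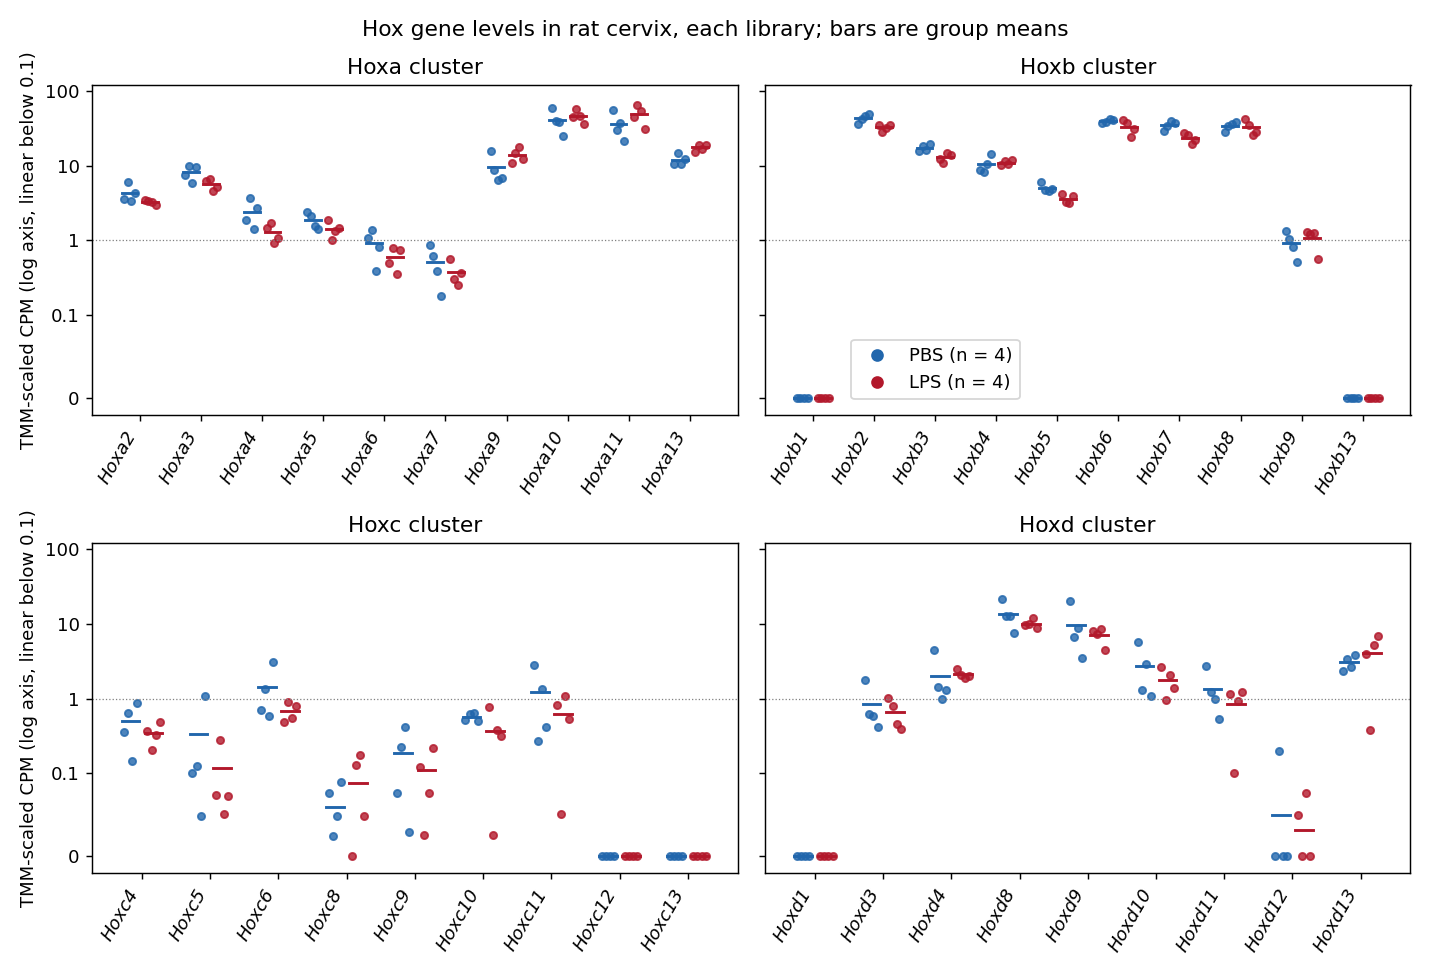
Level of 38 Hox genes (y axis, TMM-scaled CPM, logarithmic above 0.1 and linear below) in every library, by cluster and paralog number (x axis), with PBS in blue and LPS in red, bars for group means and a dotted line at 1 CPM. Hoxa10, Hoxa11, Hoxb2, Hoxb6, Hoxb7 and Hoxb8 lay at 19.7 CPM or more in all 8 libraries, most Hoxc genes under 1 CPM, and Hoxb1, Hoxb13, Hoxc12, Hoxc13 and Hoxd1 at 0.

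By paralog group, summed over its members in PBS, group 2 held 47.8 ± 5.81 CPM, group 3 26.4 ± 3.31, group 4 15.3 ± 2.68 and group 5 7.28 ± 1.01 CPM (n = 4). Most of these reads came from Hoxb, whose 3′ genes pattern the hindbrain and neck of the embryo. The trunk groups 6, 7 and 8 held 41.9 ± 2.77, 35.3 ± 3.95 and 47.8 ± 1.65 CPM, again mostly from Hoxb, with Hoxd8 as the other large part of group 8. Groups 9, 10 and 11, which are used in the loin and pelvis, held 20.3 ± 11.7, 43.8 ± 15.6 and 38.4 ± 16.4 CPM. In group 9 most reads came from Hoxa9 and Hoxd9, at 9.46 and 9.76 CPM. In groups 10 and 11 most came from Hoxa10 and Hoxa11, at 40.4 and 35.8 CPM. Group 13, the most 5′ group, held 15.1 ± 2.46 CPM, all of it from Hoxa13 and Hoxd13. In LPS the sums did not overlap those in PBS for group 2 (31.9 to 38.8 CPM), group 3 (18.3 to 19.8), group 5 (4.48 to 6.15) and group 7 (20.0 to 27.7), all below PBS, or for group 13 (19.1 to 25.9), above PBS. They overlapped for groups 4, 6, 8, 9, 10 and 11, with LPS means of 14.8, 34.5, 42.9, 22.0, 48.2 and 49.9 CPM. The sums without overlap are not separate from single genes, since most of each came from Hoxb2, Hoxb3, Hoxb5, Hoxb7 or Hoxa13. These are the 5 of 30 tested Hox genes whose own groups did not overlap, 16.7%, against 23.4% of all genes tested. Without PBS replicate 1 the PBS mean of group 9 was 14.6 CPM.

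Members at or near 0 counts were not at the ends of their clusters alone. Hoxd12 had 8 counts in PBS replicate 2, 0 in the other PBS libraries and 0 to 3 in LPS, while its neighbours Hoxd11 and Hoxd13 had means of 1.36 and 3.05 CPM in PBS. Hoxb13, known for the prostate and hindgut, was at 0 counts, as was Hoxb1, a hindbrain gene. In Hoxc, only Hoxc6 and Hoxc11 reached 1 CPM on average in PBS, at 1.44 ± 1.15 and 1.22 ± 1.18 CPM, with SDs close to the means. Hoxc6 ran from 0.591 to 3.09 CPM in PBS and its neighbour Hoxc5 from 2 to 5 counts in PBS replicates 1 to 3 against 36 in PBS replicate 4, which was the highest library for both. The annotated spans of Hoxc5 and Hoxc6 overlap on GRCr8, so their reads may have been shared or dropped in counting. Hoxc8 and Hoxc9, with Hoxc5 and Hoxd12, fell below the filter on low counts.

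Hoxa13, which directs the hindmost part of the urogenital tract, rose with LPS. It measured 10.6, 14.7, 10.6 and 12.2 CPM in PBS replicates 1 to 4 and 15.3, 18.8, 16.8 and 19.1 CPM in LPS replicates 1 to 4. Every LPS library lay above every PBS library. The means were 12.1 ± 1.93 and 17.5 ± 1.77 CPM (mean ± SD, n = 4 each). LPS minus PBS was 0.54 on the log2 scale (SE 0.14, edgeR adjusted p = 0.0297), or 1.45-fold. Hoxa13 no longer passed when PBS replicate 1, 3 or 4 or LPS replicate 2, 3 or 4 was dropped, at adjusted p up to 0.0759, or when PBS replicate 1 and LPS replicate 2 were dropped together (0.44, adjusted p = 0.120).

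Its neighbours on the 3′ side, the uterine genes Hoxa11 and Hoxa10, did not pass the test. Hoxa11 measured 55.0, 29.9, 37.2 and 21.2 CPM in PBS replicates 1 to 4 and 45.2, 63.7, 53.9 and 30.7 CPM in LPS replicates 1 to 4. Hoxa10 measured 58.5, 39.2, 38.8 and 25.3 CPM in PBS replicates 1 to 4 and 45.3, 57.1, 45.5 and 36.4 CPM in LPS replicates 1 to 4. The groups overlapped for both genes, and PBS replicate 1 stood at the level of the highest LPS libraries. Their log2 fold changes were 0.43 for Hoxa11 (95% interval -0.26 to 1.13, adjusted p = 0.365) and 0.19 for Hoxa10 (-0.36 to 0.73, adjusted p = 0.630), so that the interval of Hoxa10 holds neither a doubling nor a halving. Hoxa9, the oviduct gene, measured 15.9, 8.61, 6.51 and 6.86 CPM in PBS replicates 1 to 4 and 10.9, 14.7, 17.5 and 12.2 CPM in LPS replicates 1 to 4, with a value of 0.55 (adjusted p = 0.242). Without PBS replicate 1, its highest PBS library, the value of Hoxa9 was 0.91 and passed (adjusted p = 0.0228), as it did when LPS replicate 2 was dropped as well (0.88, adjusted p = 0.0471).

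The 3′ genes of the same cluster pointed the other way. Hoxa2 to Hoxa7, genes of the hindbrain, neck and chest, all had log2 fold changes below 0, from -0.90 to -0.40, and 0 of these 6 were called by edgeR or DESeq2, with 2 at an unadjusted p under 0.05, close to the 32.6% of all genes. Hoxa9, Hoxa10, Hoxa11 and Hoxa13 all had values above 0, from 0.19 to 0.55. This split was noticed after the values were seen, and it held with RLE and upper-quartile scaling, in DESeq2 and both limma-voom fits, and without any 1 library. These refits reuse the same libraries, so they are no separate evidence for the split. The sign alone was kept: Hoxa10 stood at 0.016 without PBS replicate 4, and of these genes only Hoxa13 was called in the main fit. No other cluster showed the same split. Of their tested 5′ genes, Hoxd9, Hoxd10, Hoxd11, Hoxc10 and Hoxc11 had -0.47, -0.64, -0.67, -0.61 and -0.97. Hoxb9 and Hoxd13 had 0.22 and 0.42, and none of these 5′ genes was called. Hoxb4 and Hoxd4 had 0.083 and 0.063, while the other tested genes of paralog groups 2 to 7 there were below 0. Hoxa3, which shapes the throat and its glands, measured 7.59, 9.95, 5.86 and 9.68 CPM in PBS replicates 1 to 4 and 6.27, 6.68, 4.51 and 5.13 CPM in LPS replicates 1 to 4. Its value was -0.55 (95% interval -1.03 to -0.068, adjusted p = 0.110), and PBS replicate 3 lay within the LPS range. Hoxa4 had -0.90 (adjusted p = 0.118) and Hoxa2 -0.40 (adjusted p = 0.253). On GRCr8 the annotated span of Hoxa3 runs over Hoxa4, Hoxa5 and Hoxa6, so reads there may have been shared or dropped in counting.

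**Figure D2:**
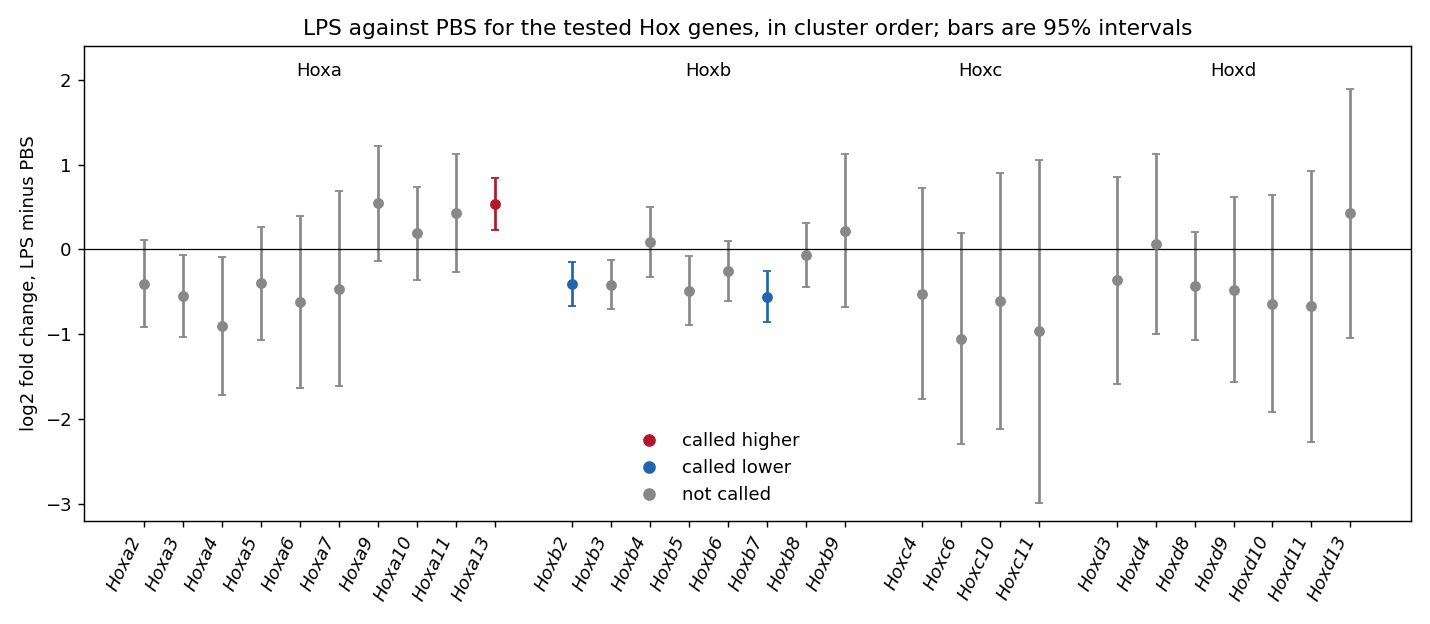
Log2 fold change, LPS minus PBS (y axis), of 29 tested Hox genes in cluster order (x axis), with 95% intervals from the edgeR fit, red for called higher, blue for called lower and grey for not called. Hoxa2 to Hoxa7 lie below 0 and Hoxa9 to Hoxa13 above it, and the intervals of Hoxc and Hoxd genes are the widest.

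Ratios of counts within a library do not depend on scaling between libraries. The log2 ratio of Hoxa13 to Hoxa3, chosen after the values were seen, was 0.49, 0.57, 0.86 and 0.34 in PBS replicates 1 to 4 and 1.29, 1.49, 1.90 and 1.89 in LPS replicates 1 to 4, so the groups did not overlap. Hoxa13 alone had no overlap and Hoxa3 had a fold change of the other sign, so this ratio is no separate evidence. The log2 ratio of Hoxa13 to Hoxa11 was -2.37, -1.02, -1.81 and -0.80 in PBS and -1.56, -1.76, -1.68 and -0.69 in LPS. Here the groups overlapped widely. The ratio of Hoxa11 to Hoxa10 averaged -0.20 ± 0.15 in PBS and 0.039 ± 0.21 in LPS, and that of Hoxd13 to Hoxd11 1.38 ± 1.25 and 2.15 ± 0.38 (n = 4 per group), with overlap in both.

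**Figure D3:**
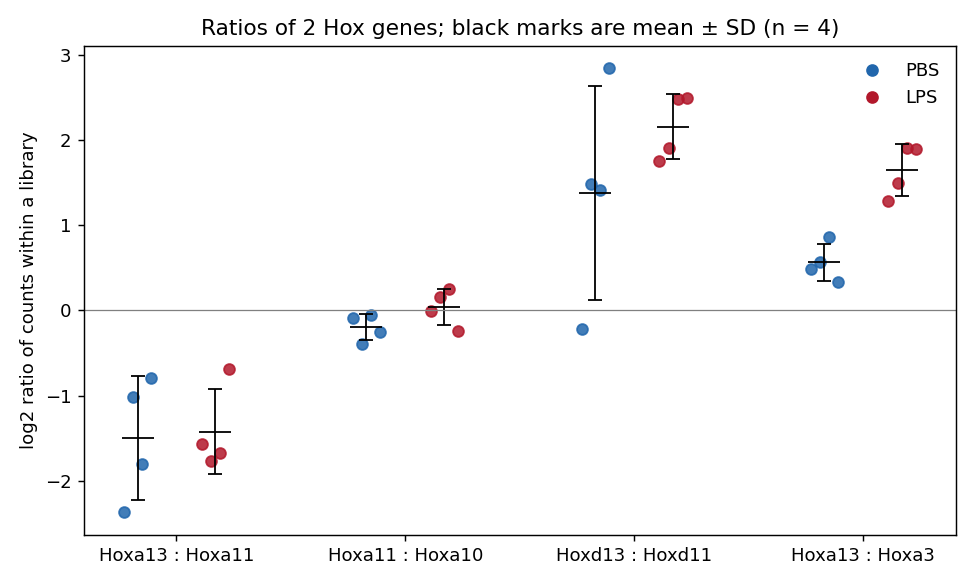
Log2 ratio of the counts of a pair of Hox genes within each library (y axis) for 4 pairs (x axis), with PBS in blue, LPS in red and black marks for mean ± SD. The ratio of Hoxa13 to Hoxa3 lies at most at 0.86 in PBS and at least at 1.29 in LPS, and the groups overlap for the other pairs.

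In Hoxb, Hoxb7 and Hoxb2 fell. Hoxb7, a trunk gene, measured 29.3, 34.1, 39.0 and 36.8 CPM in PBS replicates 1 to 4 and 27.1, 26.1, 19.7 and 21.8 CPM in LPS replicates 1 to 4. All LPS libraries lay below all PBS libraries, from 34.8 ± 4.20 to 23.7 ± 3.52 CPM, or -0.56 on the log2 scale (SE 0.13, edgeR adjusted p = 0.0229). Hoxb2, which patterns the hindbrain in mice, measured 36.2, 42.3, 46.0 and 49.3 CPM in PBS replicates 1 to 4 and 35.3, 28.5, 31.8 and 35.3 CPM in LPS replicates 1 to 4. The groups did not overlap, with means of 43.4 ± 5.62 and 32.7 ± 3.25 CPM and a value of -0.41 (SE 0.11, adjusted p = 0.0416). Hoxb7 no longer passed when PBS replicate 2, 3 or 4 or LPS replicate 4 was dropped, at adjusted p up to 0.0589, and Hoxb2 when any 1 library other than PBS replicate 1 was, at up to 0.102. Of the tested genes, 2 of 30 were called lower, against 7.45% of all genes, and 1 higher, against 9.49%.

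The other Hoxb genes did not pass the edgeR test. Hoxb3, a neighbour of Hoxb2, measured 15.6, 18.1, 16.0 and 19.5 CPM in PBS replicates 1 to 4 and 12.3, 10.8, 14.8 and 14.0 CPM in LPS replicates 1 to 4. Hoxb5 measured 6.13, 4.73, 4.63 and 4.83 CPM in PBS replicates 1 to 4 and 4.20, 3.30, 3.11 and 3.89 CPM in LPS replicates 1 to 4. Neither gene's groups overlapped, with values of -0.41 (adjusted p = 0.0587) and -0.49 (adjusted p = 0.0995), and DESeq2 called both (adjusted p = 0.0140 and 0.0260). Groups that did not overlap were found for 5 of the 30 tested Hox genes, 16.7%, against 23.4% of all genes tested. The trunk genes Hoxb6 and Hoxb8 had values of -0.25 (95% interval -0.61 to 0.099, adjusted p = 0.293) and -0.061 (-0.44 to 0.32, adjusted p = 0.832), and Hoxb4 had 0.083 (-0.33 to 0.50, adjusted p = 0.787). Hoxb4 ran from 8.29 to 14.3 CPM in PBS and from 10.2 to 11.9 CPM in LPS, a range inside that of PBS. Hoxb9 had 0.22 (adjusted p = 0.744) at about 1 CPM.

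No Hoxc or Hoxd gene was called in edgeR. 0 of 4 tested Hoxc genes and 0 of 7 tested Hoxd genes had an unadjusted p under 0.05, and DESeq2 and limma-voom called 0 of them too. Among genes of at least 1 CPM in PBS, the highest PBS library exceeded the lowest by 1.13 to 1.72 times in Hoxb, by 1.39 to 2.59 times in Hoxa, by 1.66 to 5.75 times in Hoxd and by 5.22 to 10.4 times in Hoxc. The median over all 14234 tested genes of that level was 1.32 times. Hoxd9, which acts in the lower back, measured 20.2, 6.58, 8.77 and 3.51 CPM in PBS replicates 1 to 4 and 7.93, 7.24, 8.48 and 4.47 CPM in LPS replicates 1 to 4. PBS replicate 1 stood far above the rest and PBS replicate 4 below them. Its value was -0.47 (95% interval -1.56 to 0.62, adjusted p = 0.536), which spans 0, and 0.16 without PBS replicate 1. Hoxd8 had -0.43 (adjusted p = 0.320).

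Hoxd13, the partner of Hoxa13 in the urogenital tract and digits, measured 2.32, 3.39, 2.61 and 3.87 CPM in PBS replicates 1 to 4 and 3.90, 0.384, 5.22 and 6.85 CPM in LPS replicates 1 to 4. LPS replicate 2 held less than any other library and LPS replicate 4 the most, and the value of 0.42 (95% interval -1.04 to 1.89, adjusted p = 0.693) was 0.80 without LPS replicate 2 and below 0 in both limma-voom fits. LPS replicate 2 was also the lowest library for Hoxc10, Hoxc11 and Hoxd11, which held 1, 2 and 4 counts there, but it was the highest LPS library for Hoxa10 and Hoxa11. Hoxd10 was only slightly lower in LPS replicate 2 than in PBS replicate 4, at 0.947 against 1.08 CPM, with 37 against 36 counts. In PBS, replicate 1 was the highest library for 5 of the 6 Hoxd genes of at least 1 CPM and for Hoxa9, Hoxa10 and Hoxa11, and replicate 4 the lowest for 4 of those Hoxd genes and for Hoxa10 and Hoxa11. The log2 fold change of Hoxd4 was 0.063, or 0.77 without PBS replicate 1. That of Hoxc11 was -0.97, or -0.14 without the same library, and that of Hoxc6 was -1.05, or -0.37 without PBS replicate 4.

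**Figure D4:**
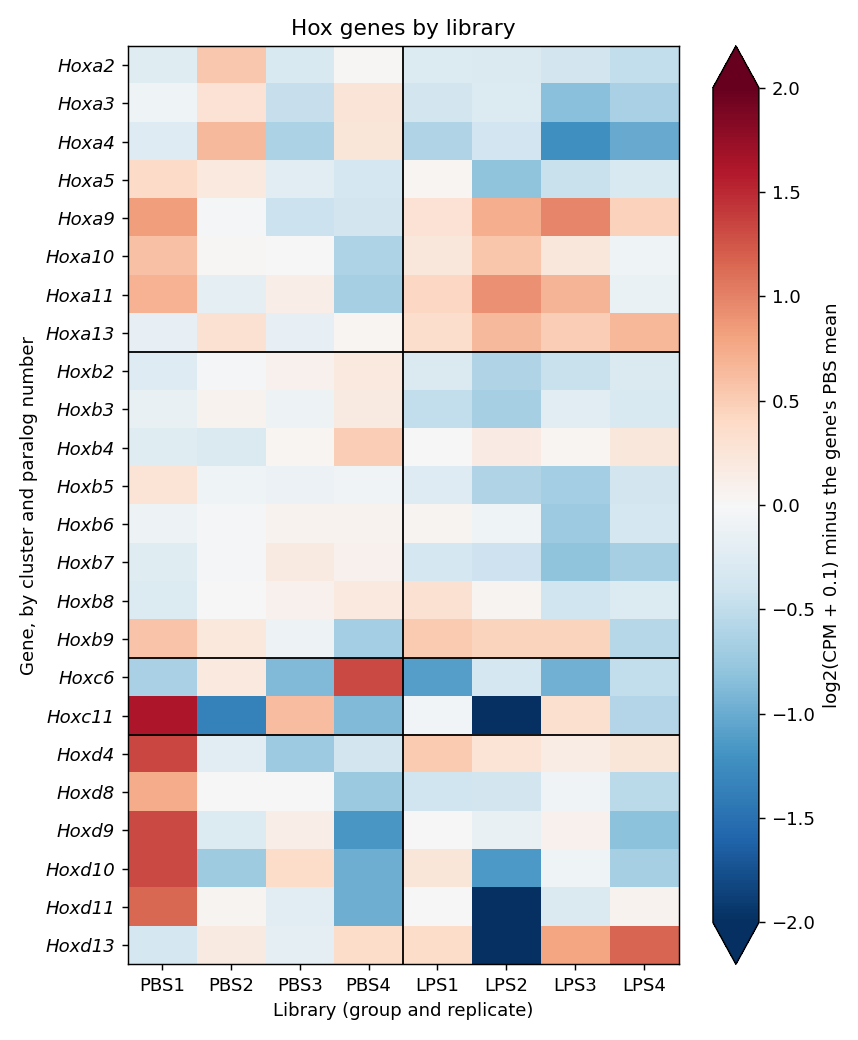
Log2(CPM + 0.1) of 24 Hox genes with at least 1 CPM in either group (rows) in each library (columns), as the difference from the gene's mean over PBS, red above and blue below, with lines between clusters and groups. Hoxb rows are pale, while the column of PBS replicate 1 is red for Hoxa9 to Hoxa11, Hoxc11 and Hoxd4 to Hoxd11 and that of LPS replicate 2 is dark blue for Hoxc11, Hoxd11 and Hoxd13.

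Cell type markers differed between the same groups and libraries. Of all genes tested 9.49% were called higher and 7.45% lower, and a list of about 10 genes with 1 called is near that share. Of 11 smooth muscle markers 7 were lower in LPS, with a summed level of 4843 to 13283 CPM in PBS and 4106 to 5908 CPM in LPS, and of 10 stromal fibroblast markers 6 were higher, with 12116 to 15153 CPM in PBS and 17394 to 27259 CPM in LPS. Of 11 macrophage and monocyte markers 8 were higher, with 776 to 1203 CPM in PBS and 1584 to 2345 CPM in LPS, and of 10 tested squamous epithelium markers 1 was lower, with 7617 to 13591 CPM in PBS and 5440.3 to 6527 CPM in LPS. That 1 was Krt13, with means of 2197 CPM in PBS and 94.9 CPM in LPS. Krt5, Krt14 and Tp63 were not called (-0.30, 0.12 and 0.14), and 4 of the 10 were lower at an unadjusted p under 0.05. Of 9 tested neutrophil markers 6 were higher, with 81.1 to 132 CPM in PBS and 440.4 to 1707 CPM in LPS, and 2 of 10 nerve and 2 of 9 endothelium markers were lower. Of 10 columnar epithelium markers 0 were called by edgeR or limma-voom, 2 by DESeq2, and 3 had an unadjusted p under 0.05. Of 8 tested T, NK and B cell markers 1 was higher, and of 6 tested red cell markers 5 were lower. No smooth muscle, fibroblast or macrophage marker was at 0. Summed smooth muscle markers were 13283 CPM in PBS replicate 1 and 4843 CPM in PBS replicate 4, the PBS libraries highest and lowest in Hoxa10, Hoxa11 and most Hoxd genes. The same libraries were highest and lowest in PBS for endothelium (812 and 374 CPM), macrophage, T, NK and B cell (134 and 77.2 CPM), skeletal muscle and decidua sums. The order was reversed for squamous epithelium, with 7617 CPM in PBS replicate 1 and 13591 CPM in PBS replicate 4. It was also reversed for neutrophil sums (81.1 and 132 CPM). Columnar epithelium, nerve and urothelium sums were lowest among PBS libraries in replicate 1 too, at 16079, 150 and 108 CPM. Hoxa11 was highest of all in LPS replicate 2, where smooth muscle markers summed to 4910 CPM. Summed nerve markers were 28.7 CPM in LPS replicate 2 and 191, 86.6 and 108 CPM in LPS replicates 1, 3 and 4. In bulk tissue, fewer cells of a type and less RNA per cell cannot be told apart. Of 5 tested bladder urothelium markers 1 was higher and 2 were lower, with 108 to 226 CPM in PBS and 82.1 to 151 CPM in LPS. Of 9 skeletal muscle markers 7 fell below the filter and 1 of the other 2 was lower, with 68.5 to 261 CPM in PBS and 38.1 to 83.5 CPM in LPS. Of 8 decidua and trophoblast markers with a row 7 fell below the filter, 4 of them at 0 counts, and Dio3, the remaining one, was lower. Their sum was 315 CPM in PBS replicate 1, 47.3 to 89.0 CPM in PBS replicates 2 to 4 and 2.73 to 4.72 CPM in LPS. The part of all these marker shifts in the Hox values was not tested.

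None of the cofactors of Hox proteins passed the edgeR test. Of 10 tested genes of the Pbx, Meis, Pknox and Tgif families, 0 were called by edgeR or limma-voom, 3 had an unadjusted p under 0.05 and DESeq2 called 3. The shares over all genes were 16.9% in edgeR, 16.2% in limma-voom, 32.6% at an unadjusted p and 26% in DESeq2, so the unadjusted and DESeq2 counts are near the background. The 10 genes had a median log2 fold change of 0.087 against 0.010 over all genes. Meis1 and Meis2 had 102 ± 22.5 and 62.3 ± 11.4 CPM in PBS and 102 ± 14.9 and 62.1 ± 16.0 CPM in LPS, with 95% intervals of -0.40 to 0.40 and -0.45 to 0.45.

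Of 13 tested Trithorax and activating genes 0 were called by edgeR or limma-voom, 3 had an unadjusted p under 0.05 and DESeq2 called 2, against 16.9%, 16.2%, 32.6% and 26% of all genes in that order, with a median of -0.070. The H3K4 methyltransferase Kmt2a had -0.16 (adjusted p = 0.358). Cdx2 and Cdx4, which switch on Hox genes in the embryo's tail, were at 0 counts. Of 24 Polycomb genes 0 rose and 2 fell, the latter near the 7.45% of all genes called lower. They were Phc2, which fell by 0.33 on the log2 scale (adjusted p = 0.0199), and Kdm2b, which fell by 0.37 (adjusted p = 0.0446), and the median over the 24 genes was -0.0038. Phc2 no longer passed when PBS replicate 2 was dropped, nor Kdm2b when any 1 library other than PBS replicate 1 was. Ezh2, the H3K27 methyltransferase, had 0.14 (adjusted p = 0.543).

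Among retinoic acid genes, which include upstream inducers of Hox clusters in the embryo, 1 of 18 rose and 4 fell, against 9.49% and 7.45% of all genes, with a median of -0.21. Dhrs3, a retinaldehyde reductase, fell from 176 ± 31.0 to 61.8 ± 9.32 CPM (-1.51, adjusted p = 0.000885). Cyp26a1, which breaks retinoic acid down, measured 41.7, 8.47, 12.0 and 3.51 CPM in PBS replicates 1 to 4 and 0.0741, 0.307, 0.431 and 0.196 CPM in LPS replicates 1 to 4, and fell (adjusted p = 0.00400, and 0.0515 in limma-voom). Its groups did not overlap. PBS replicate 1 was the highest library for it, as for most Hoxd genes. The receptors Rara and Rarg fell by 0.42 and 0.61 (adjusted p = 0.0265 and 0.0298), and Rdh10, which makes retinaldehyde, rose by 1.03 (adjusted p = 0.00854).

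Of 20 tested patterning genes of the female tract, 1 rose and 3 fell, against 9.49% and 7.45% of all genes, with a median of -0.23. Pax8, a duct epithelium factor, fell from 170.3 ± 38.3 to 77.4 ± 22.6 CPM (-1.14, adjusted p = 0.0126), and Wnt7a, an epithelial signal needed to keep Hoxa10 and Hoxa11 on in the mouse uterus, rose from 0.141 ± 0.0726 to 1.07 ± 0.656 CPM (adjusted p = 0.0162, or 0.0530 with PBS replicate 2 dropped). Pax2 fell by 0.68 (adjusted p = 0.0310). Of 11 tested genes that have been named as targets of HOXA10 or HOXA11 in the endometrium, 0 rose and 3 fell, against the same shares, with a median of -0.33. Foxo1 fell by 0.71 (adjusted p = 0.0257) and Pgr, the progesterone receptor, by 0.63 (adjusted p = 0.0370). Foxo1 no longer passed when PBS replicate 1 or 2 or LPS replicate 3 or 4 was dropped, nor Pgr when any 1 library other than LPS replicate 2 was. The third, Emx2, sits in both lists and fell by 0.65 (adjusted p = 0.0406).

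Other position genes of the homeobox and T-box families were mostly low: 13 of 24 fell below the filter, and of 11 tested 1 rose and 1 fell, near those shares, with a median of -0.52. Meox1 rose from 2.42 ± 0.485 CPM in PBS to 7.73 CPM or more in each LPS library (2.04, adjusted p = 0.000814), and Tbx2 fell from 157 ± 26.9 to 87.7 ± 23.8 CPM (-0.84, adjusted p = 0.0305). Tbx2 no longer passed when PBS replicate 2, 3 or 4 or LPS replicate 2 was dropped.

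The table also held 4 noncoding transcripts of the Hox clusters. Of 3 tested, 0 were called by edgeR, DESeq2 or limma-voom and 0 had an unadjusted p under 0.05. Hoxa11-as, read from the strand opposite Hoxa11, measured 20.2, 12.8, 12.8 and 9.32 CPM in PBS replicates 1 to 4 and 14.6, 23.1, 17.7 and 16.9 CPM in LPS replicates 1 to 4. It was highest in PBS replicate 1 and LPS replicate 2 and lowest among the PBS libraries in replicate 4, as Hoxa11 was, and its value was 0.39 (adjusted p = 0.292). No source used here gives the strand setting of the counting, so reads of the antisense gene and of Hoxa11 may be mixed if they overlap. On GRCr8 no other gene is annotated over the span of Hoxa11. Hotairm1 and Hoxb5os were under 1 CPM on average, and Hoxaas3 was at 0 counts.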

How the data were processed

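RNA of rat cervix was extracted with TRIzol and made into libraries with the VAHTS Universal V6 kit, per the labels' protocols. For these 8 libraries the authors deposited whole-number counts per gene symbol. Per the submitters' processing notes, the genome build named is mRatBN7.2 and the tools are HTSeq, HISAT2, fastp and R 3.2.0, in roles that are not stated. Strand setting and annotation: not given in the sources used here. Columns were matched to samples by library name. Counts were scaled by TMM and filtered by filterByExpr, and LPS was compared with PBS in edgeR 4.0.16 (R 4.3.3) by robust quasi-likelihood F tests with Benjamini-Hochberg adjustment over 16117 genes, called under 0.05. Without an adjusted p of another tool, a p is from this test. SE is the size of the log2 fold change divided by the square root of F. Alternatives were RLE and upper-quartile scaling, other filters, DESeq2 1.42.0, limma-voom 3.58.1, single libraries left out, PBS replicate 1 and LPS replicate 2 left out together, and a replicate block. The edgeR step was tested on simulated data with planted changes larger than those of the called Hox genes. It therefore does not show how well changes of their size are recovered. Floors of 3 counts cover counting error only. No replicate pair agreed within sampling noise (chi-square over its degrees of freedom 57.5 or more). The replicates are described as biological, with no word on separate dams.

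The Hox genes, lists and the rule for named genes (Hox genes of at least 1 CPM in either group or called, the 2 called members of lowest adjusted p of each list, and cofactors and regulators set by name, among them Meis1, Meis2, Cyp26a1, Kmt2a and Ezh2) were chosen with earlier results of these data known. Genes outside the rule, such as Hoxc5, Hoxd12, Dio3, Emx2, Pax2, Rara and Rarg, and the Hoxa11-as comparison were picked after their values were seen. Some items are not reported here. Sequences come from RefSeq, GRCr8.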

Additional observations from a re-analysis of the deposited data

Results flagged for a closer look

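In 4 of 86 groups of 4 libraries examined, 1 library lay far from the other 3 by Dixon's test, and chance gives about 1 in 20. PBS replicate 1 was far above the other PBS libraries for Hoxb5 (6.13 CPM) and Hoxd4 (4.42 CPM). LPS replicate 4 was far below the other LPS libraries for Hoxb9 (0.562 CPM) and Meox1 (7.73 CPM).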

How the results depend on the processing

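RLE and upper-quartile scaling and both other filters left every call of a named Hox gene that was tested as it was, with Hoxa13, Hoxb2 and Hoxb7 called. Under the stricter filter 22 of the 24 named Hox genes were tested, and the 4 of Hoxa2 to Hoxa7 that remained lay below 0. DESeq2 called 4 Hox genes lower, and over all genes 2089 lower, and 7 of the listed genes higher, where edgeR called 3 and the weighted limma-voom fit 6. With 1 library left out, the count of Hox genes called ran from 0 to 1 higher and 0 to 2 lower, their median from -0.54 to -0.14, the count of all genes from 904 to 1385 higher and 563 to 1199 lower, and that of listed genes called lower from 3 to 11, against 12 over all libraries. 0 Hox genes were called without PBS replicate 3, PBS replicate 4 or LPS replicate 4. With PBS replicate 1 and LPS replicate 2 dropped together, Hoxa9, Hoxb2 and Hoxb7 were called, the median was -0.12, and uncalled values changed sign for Hoxb4 (-0.020), Hoxc11 (0.24), Hoxd9 (0.14), Hoxd10 (0.20) and Hoxd11 (0.27). In limma-voom the value of Hoxd13 was -0.11, or -0.24 with quality weights, and near-zero values changed sign for Meis1 in limma-voom (0.014) and Meis2 with quality weights (0.0088). With 1 library left out, uncalled values that crossed 0 ran from -0.011 to 0.27 for Hoxb4, -0.20 to 0.038 for Hoxb8, -0.17 to 0.77 for Hoxd4, -0.76 to 0.16 for Hoxd9, -0.14 to 0.11 for Meis1 and -0.17 to 0.13 for Meis2. The cause of these shifts was not tested. The settings for listed genes, for the Hoxa split and for ratios were chosen after seeing the data. Equal replicate numbers are not said to mark shared litters or days, and LPS replicate 4 carries the library name PTB-5. The correlations of same-numbered libraries' deviations were -0.032, -0.099, -0.073 and 0.24. Only PBS replicate 4 and LPS replicate 4 correlated best with their own number, so the numbers were not taken to pair the samples. With the replicate number as a block, 1 Hox gene was called higher and 0 lower, and Hoxb2 (adjusted p = 0.0730) and Hoxb7 (adjusted p = 0.0781) did not pass. The value of Meis1 under the block was 0.014. In PBS, scaling by library totals in place of TMM moved no paralog group sum or cluster share by more than 1 SD. Levels per transcript length were not run, for want of transcript lengths. Hoxc5, Hoxc8, Hoxc9 and Hoxd12 had too few counts to be tested at this depth.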
